A study of Mus musculus with 6 samples.

Results

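Stellate cells are the vitamin A-storing pericytes of the liver sinusoid. On injury they turn into contractile myofibroblasts that lay down fibrillar collagen, a change driven above all by TGF-β and PDGF. They are also the main source of hepatocyte growth factor in the liver. The genes described here are markers of the stellate cell (Des, Reln, Dcn, Hgf, Pdgfrb), markers of the activated cell and its matrix (Acta2, Col1a1, Col1a2, Col3a1) and the cytokine Tgfb1. These 10 genes were chosen by symbol from 45777 rows of the deposited table. All 10 were found once each, and all 10 passed the filter on low counts that left 16197 genes for testing.

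Whole liver was taken from C57BL/6 mice aged 10 weeks. The WT group held 3 libraries from mice with floxed Pak4 on both alleles (Pak4 flox/flox) and no Cre. The Pak4_KO group held 3 libraries from Alb-Cre; Pak4 flox/flox mice, in which the albumin promoter drives Cre in hepatocytes, so that Pak4 is not deleted by design in stellate cells. Nothing in the labels says whether each library came from its own animal, so p-values measure the spread between libraries, which may be technical.

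Library totals ran from 39603272 to 52521400 reads. Pak4, which encodes a serine/threonine kinase, stood at 5.93, 7.15 and 6.44 CPM in the WT libraries (replicates 1, 2 and 3 in order, here and in every such list below) and at 1.37, 2.24 and 1.90 CPM in the Pak4_KO libraries. CPM are read counts divided by library size on the usual CPM scale, after TMM scaling. The log2 fold change of Pak4 was -1.82 (SE 0.24, edgeR adjusted p = 0.0169), and the adjusted p rose above 0.05 without WT replicate 1 (0.0562), WT replicate 2 (0.0608) or Pak4_KO replicate 3 (0.0936). The groups lay on opposite sides of the first principal component of log2 CPM, while WT replicate 3 and Pak4_KO replicate 1 stood farthest apart on the second, at -46.8 and 42.6. Hepatocyte markers, 8 of 8 tested, summed to between 57987 and 76750 CPM. Desmin is also made by striated muscle, of whose 10 markers Ckm, Acta1, Myh1, Myh2 and Actn2 had no reads in any library and all 10 together summed to at most 0.274 CPM.

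None of the 10 genes was called in Pak4_KO against WT at an adjusted p under 0.05 by edgeR's quasi-likelihood test, a rule that called 0.469% of all tested genes. The DESeq2 Wald test, which called 2.06% of its genes, also called 0 of the 10, and so did limma-voom. At an unadjusted p under 0.05, edgeR picked 2 of the 10, Col3a1 and Col1a1, against 8.21% of all tested genes. Of the 10, 8 had a positive log2 fold change, as did 50.7% of all tested genes, with a median of 0.16 over the 10 and of 0.004 over all tested genes. In bulk liver, a change in the number of stellate cells and a change in RNA per cell cannot be told apart.

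**Figure D1:**
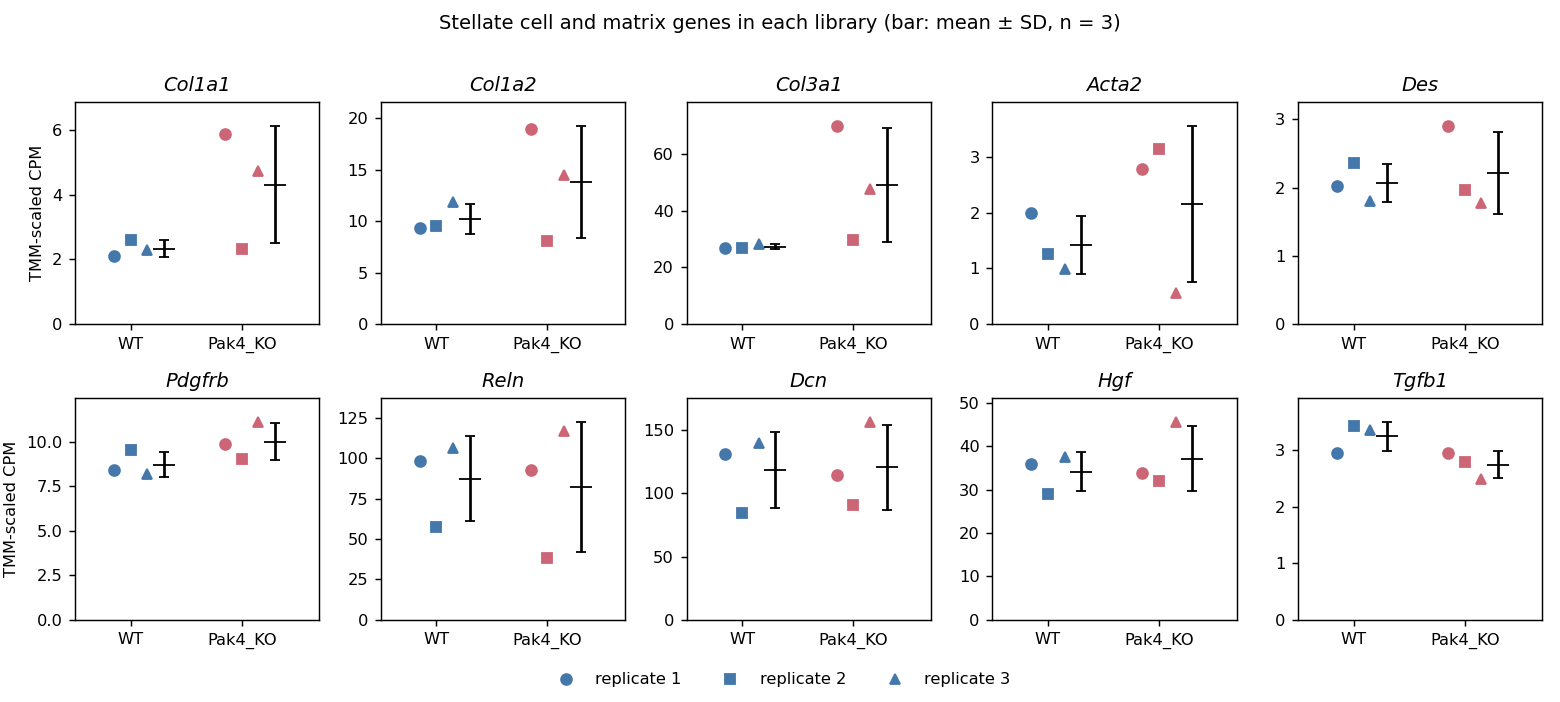
TMM-scaled CPM of each of the 10 genes in the 3 WT and 3 Pak4_KO libraries, with marker shape showing the replicate number and bars showing mean ± SD (n = 3). Col3a1 was the single gene whose Pak4_KO libraries all lay above WT, and Pak4_KO replicate 2 lay far below the other Pak4_KO libraries for all 3 collagens and Reln.

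The promoters of Col1a2, Col3a1 and Acta2 are printed below. The collagen transcripts ranked the libraries alike at the top and Acta2 did not, and whether promoter sequence bears on this was not tested. RefSeq promoter entries matched 7 of the 10 genes, and Col1a1 was not among them. Each line gives the 250 bases before an annotated transcript start, 5′ to 3′ on the gene's strand, from RefSeq on GRCm38.p6 (the build also called mm10), with matches to the motifs named after them in capitals, other than CAGAC. The Acta2 start used lies inside the span of that gene, so most of its window does too.
Col3a1 (chr1:45311288-45311537, plus strand): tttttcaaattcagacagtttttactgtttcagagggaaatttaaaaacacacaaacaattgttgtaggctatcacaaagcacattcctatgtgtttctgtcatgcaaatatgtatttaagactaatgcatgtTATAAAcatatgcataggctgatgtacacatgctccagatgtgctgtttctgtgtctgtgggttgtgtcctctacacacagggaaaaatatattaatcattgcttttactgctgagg
Col1a2 (chr6:4505368-4505617, plus strand): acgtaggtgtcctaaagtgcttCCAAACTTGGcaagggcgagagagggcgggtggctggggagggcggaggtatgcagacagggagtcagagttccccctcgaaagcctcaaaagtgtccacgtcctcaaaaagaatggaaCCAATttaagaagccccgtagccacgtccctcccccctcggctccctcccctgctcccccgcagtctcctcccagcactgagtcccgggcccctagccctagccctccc
Acta2 (chr19:34255374-34255623, minus strand): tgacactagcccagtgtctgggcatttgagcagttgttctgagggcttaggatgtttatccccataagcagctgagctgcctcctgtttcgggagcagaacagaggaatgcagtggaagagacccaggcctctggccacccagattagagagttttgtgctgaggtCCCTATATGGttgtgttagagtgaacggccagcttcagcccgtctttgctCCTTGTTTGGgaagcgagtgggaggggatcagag

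The windows were searched on both strands for TATAAA, for CCAAT, for the CArG box (the serum response factor motif of contractile genes) for a CArG box with 1 of its central letters off, and for CAGAC, a motif bound by SMAD proteins, which is left in lower case. TATAAA began 117 bases before the start of Col3a1 and CCAAT 109 bases before that of Col1a2. Acta2 held 2 CArG boxes with 1 letter off, CCCTATATGG at 84 and CCTTGTTTGG at 34 bases before the start, and Col1a2 held 1, CCAAACTTGG, at 228 bases. None of the 3 windows held a strict CArG box. Among 32851 windows of the same length, 12.4% held TATAAA, 33.8% CCAAT, 1.47% a strict CArG box and 8.59% one with up to 1 letter off. CAGAC, on either strand, was in all 3 windows, at 239 and 64 bases before the start for Col3a1, 175 for Col1a2 and 235 for Acta2, and in 42.2% of all windows. The windows also differed in base composition, with 35.2% G and C for Col3a1, 62% for Col1a2 and 53.6% for Acta2.

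The 3 fibrillar collagens and Acta2 had the 4 highest log2 fold changes of the 10 genes, and none of the 4 was called. Col3a1 (chromosome 1, 45311538 to 45349706), the only chain of type III collagen, stood at 26.8, 26.9 and 28.2 CPM in WT and at 69.8, 29.7 and 47.5 CPM in Pak4_KO. The 3 WT libraries were nearly equal, and the 3 Pak4_KO libraries all lay above them, replicate 2 by a small margin. The log2 fold change was 0.84 (SE 0.27, 95% interval 0.23 to 1.46, edgeR adjusted p = 0.383). Without Pak4_KO replicate 1 it was 0.50 (adjusted p = 0.508), and without Pak4_KO replicate 2 it was 1.10 (adjusted p = 0.144).

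Col1a1 (chromosome 11, 94936224 to 94953042), the alpha 1 chain of type I collagen, stood at 2.09, 2.61 and 2.31 CPM in WT and at 5.88, 2.33 and 4.74 CPM in Pak4_KO. Pak4_KO replicates 1 and 3 were higher than each WT library and replicate 2 lay among them. This gave a log2 fold change of 0.88 (SE 0.33, 95% interval 0.12 to 1.65, edgeR adjusted p = 0.517), from 83 to 249 reads per library. Col1a2 (chromosome 6, 4505618 to 4541543), the alpha 2 chain that joins Col1a1 in the type I trimer, stood at 9.31, 9.49 and 11.9 CPM in WT and at 18.9, 8.09 and 14.4 CPM in Pak4_KO. The 2 highest libraries were again Pak4_KO replicates 1 and 3, but replicate 2 was the lowest of all 6. Its log2 fold change was 0.43 (SE 0.29, 95% interval -0.22 to 1.09, edgeR adjusted p = 0.783), and 0.14 without Pak4_KO replicate 1.

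The chains were also compared with each other within each library. On the deposited TPM scale, which is per length, the ratio of Col1a1 to Col1a2 was 0.197, 0.241 and 0.170 in WT and 0.273, 0.252 and 0.288 in Pak4_KO. It was below 1 in every library. The type I trimer holds more alpha 1 than alpha 2 chains, but that counts protein chains, which were not measured here. For this ratio the groups did not overlap (mean 0.203 ± 0.0357 against 0.271 ± 0.0180, SD, n = 3 each, exact permutation test, two-sided, p = 0.1). The ratio of Col3a1 to Col1a2 did not overlap either, at 2.70, 2.66 and 2.23 in WT and 3.46, 3.45 and 3.08 in Pak4_KO (exact permutation p = 0.1). Both ratios have Col1a2 as denominator, so they are not independent of each other. The smallest p that 3 against 3 libraries can give is 0.1, so neither ratio could pass 0.05. The ratio of Col3a1 to Col1a1 overlapped between the groups, at 12.6 ± 1.42 and 12.4 ± 1.52 (SD, n = 3 each, exact permutation p = 0.7). Adjusted over the 3 ratios, the smallest of these p-values is 0.15.

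**Figure D2:**
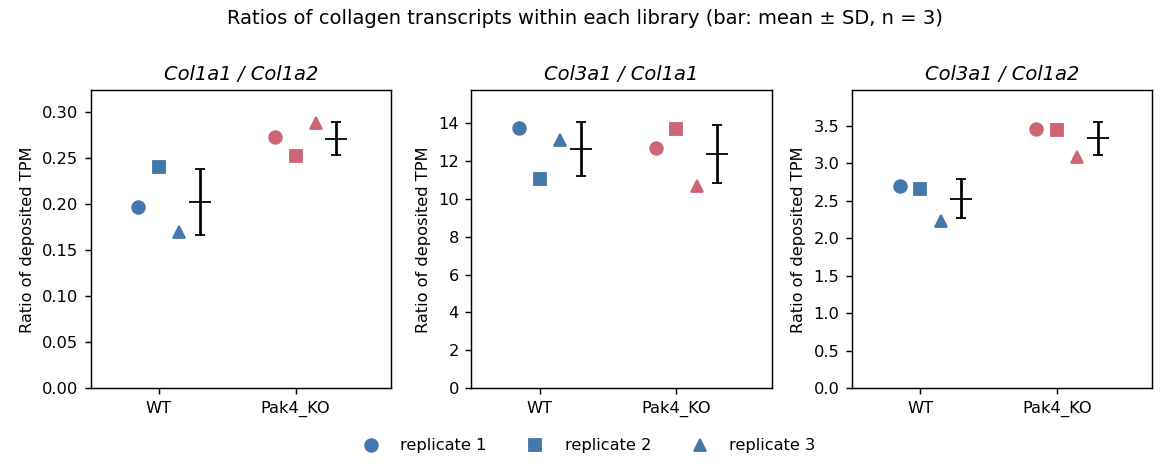
Ratios of deposited TPM between collagen transcripts in each library, with marker shape for the replicate number and bars for mean ± SD (n = 3). Col1a1/Col1a2 and Col3a1/Col1a2 were higher in all 3 Pak4_KO libraries than in any WT library, while Col3a1/Col1a1 overlapped.

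Acta2 (chromosome 19, 34240336 to 34255585) encodes α-smooth muscle actin, the usual marker of the activated stellate cell, and is also made by vascular smooth muscle. It stood at 1.99, 1.26 and 0.994 CPM in WT and at 2.78, 3.13 and 0.560 CPM in Pak4_KO. Pak4_KO replicate 3, which was the second highest library for each collagen, was the lowest of all for Acta2, with 28 reads against 148 in replicate 2. The highest library was 5.59 times the lowest, the widest range of the 10 genes. The log2 fold change was 0.61 (SE 0.57, 95% interval -0.70 to 1.92, edgeR adjusted p = 0.874), and between 0.24 and 1.07 with 1 library left out. Myh11, the smooth muscle myosin, was likewise lowest in Pak4_KO replicate 3, at 0.940 CPM against 4.74 and 6.58 CPM in replicates 1 and 2 and 2.40 to 2.64 CPM in WT. Of the 5 smooth muscle markers tested, Myh11 and Tagln were lowest in Pak4_KO replicate 3, Synpo2 and Smtn in WT replicate 3 and Mylk in Pak4_KO replicate 2. The 11 listed markers summed to 44.5 to 66.8 CPM in WT and 41.8 to 68.6 CPM in Pak4_KO. The part of smooth muscle in the values of Acta2 and of Des was not tested.

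Des (chromosome 1, 75360292 to 75368579), the intermediate filament desmin used to find stellate cells in rodent liver, stood at 2.02, 2.36 and 1.81 CPM in WT and at 2.90, 1.97 and 1.78 CPM in Pak4_KO. Pak4_KO replicate 1 was the highest library and the others overlapped. The log2 fold change of Des was 0.10 (SE 0.27, 95% interval -0.52 to 0.72, edgeR adjusted p = 0.969), and -0.14 without Pak4_KO replicate 1. Pdgfrb (chromosome 18, 61045127 to 61085067), the receptor for PDGF-B and PDGF-D, was among the steadiest of the genes, at 8.43, 9.51 and 8.19 CPM in WT and 9.84, 9.04 and 11.1 CPM in Pak4_KO. The groups overlapped, with a log2 fold change of 0.20 (SE 0.16, 95% interval -0.16 to 0.56, edgeR adjusted p = 0.831).

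Reln, Dcn and Hgf, each known as abundant products of resting stellate cells, ranked the 6 libraries almost identically. From high to low, all 3 genes ran Pak4_KO replicate 3, WT replicate 3, WT replicate 1 and Pak4_KO replicate 1, with the second replicates of both groups lowest. Reln (chromosome 5, 21884454 to 22344705), the secreted glycoprotein reelin, stood at 98.4, 57.5 and 106 CPM in WT and at 92.5, 38.2 and 117 CPM in Pak4_KO. The lowest and the highest library, 3.06-fold apart, were both Pak4_KO, and WT lay between them. Its log2 fold change was -0.08 (SE 0.38, 95% interval -0.96 to 0.80, edgeR adjusted p = 0.991), or 0.26 without Pak4_KO replicate 2 and 0.08 without WT replicate 3.

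Dcn (chromosome 10, 97479500 to 97518163), the small proteoglycan decorin that coats collagen fibrils and binds TGF-β, stood at 131, 84.3 and 140 CPM in WT and at 115, 90.7 and 157 CPM in Pak4_KO. The groups overlapped throughout (log2 fold change 0.03, SE 0.25, 95% interval -0.54 to 0.59, edgeR adjusted p = 0.997), with negative values without WT replicate 2 (-0.17) or Pak4_KO replicate 3 (-0.21). Hgf (chromosome 5, 16553495 to 16619439), the growth factor that acts on hepatocytes through MET, stood at 35.8, 29.1 and 37.5 CPM in WT and at 33.7, 31.9 and 45.7 CPM in Pak4_KO. Its log2 fold change was 0.12 (SE 0.18, 95% interval -0.28 to 0.52, edgeR adjusted p = 0.933), and -0.06 without Pak4_KO replicate 3.

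Tgfb1 (chromosome 7, 25687002 to 25705077), the cytokine that drives collagen synthesis in stellate cells and is made by several liver cell types, stood at 2.95, 3.43 and 3.36 CPM in WT and at 2.95, 2.79 and 2.48 CPM in Pak4_KO. The Pak4_KO libraries all lay below WT, though the nearest pair differed only in the next decimal. The log2 fold change was -0.25 (SE 0.20, 95% interval -0.71 to 0.22, edgeR adjusted p = 0.842). Tgfb1 lies 2.85 Mb from Pak4, and whether its position bears on its values was not tested. Counting Col3a1 above and Tgfb1 below, 1 of the 10 genes had all Pak4_KO libraries above WT, against 7.35% of all tested genes, and 1 had all below, against 6.06%. These shares are near the background.

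**Figure D3:**
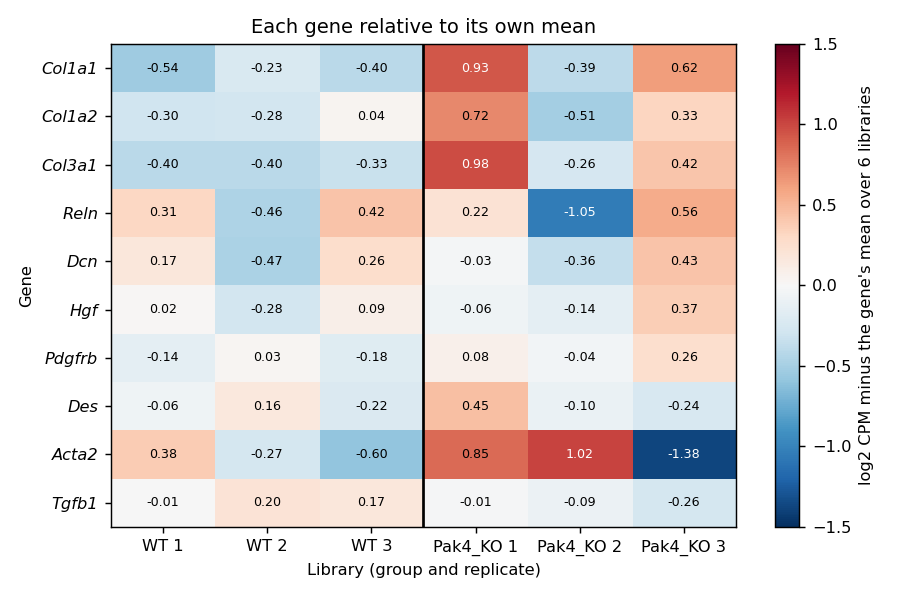
Log2 CPM of each gene minus its own mean over the 6 libraries, with genes in rows, libraries in columns and a line between the groups. The collagens were highest in Pak4_KO replicate 1, Reln, Dcn and Hgf in Pak4_KO replicate 3, and Acta2 ran from 1.02 in Pak4_KO replicate 2 to -1.38 in replicate 3.

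**Figure D4:**
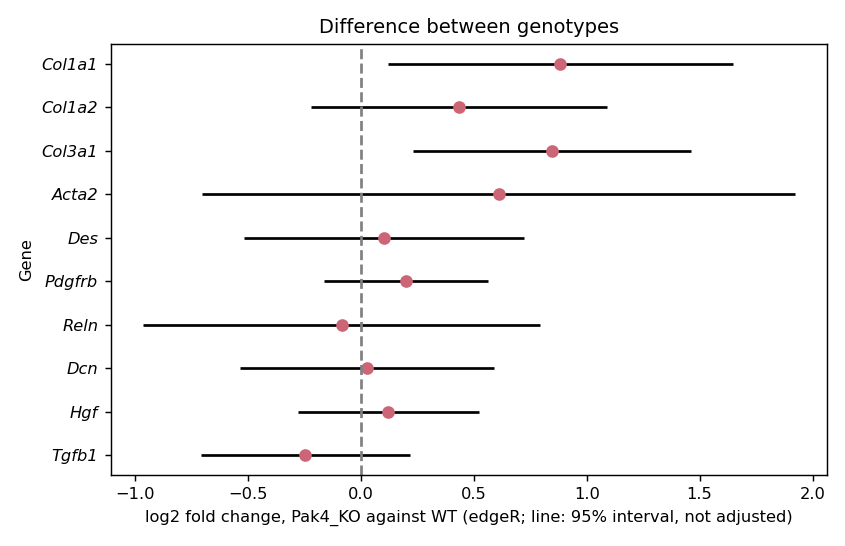
Log2 fold change of Pak4_KO against WT for each gene (edgeR, points) with its 95% interval, not adjusted for the number of genes tested (lines). The intervals of Col3a1 and Col1a1 lay above 0 and the other 8 included it.

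Compared per length over all 6 libraries, Dcn had the highest level, at 109 ± 30.1 TPM (SD over 6 libraries), and its lowest library (72.4 TPM) lay above the highest of any other gene. Hgf followed at 23.3 ± 4.92 TPM, then Reln at 12.4 ± 4.82 TPM and Col3a1 at 11.7 ± 5.72 TPM, and the ranges of these 3 overlapped. Col1a2 (3.92 ± 1.45 TPM), Pdgfrb (3.00 ± 0.495 TPM) and Tgfb1 (2.31 ± 0.181 TPM) overlapped as neighbours. Acta2, Des and Col1a1 shared the lowest place, at 1.18 ± 0.686, 1.18 ± 0.244 and 0.958 ± 0.495 TPM.

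Among 11499 named genes with at least 1 CPM, those nearest to the mean profile of the 3 collagens over the libraries included Kctd17, Gpr157, Fam171b and Exo5. The measure was the root mean square distance of centred log2 CPM over 6 libraries, which was 0.149 for Kctd17 and 0.170 for Exo5. Kctd17 stood at 1.74, 1.60 and 1.73 CPM in WT and at 3.16, 1.65 and 3.16 CPM in Pak4_KO, a pattern for which it was chosen. By the same measure Pdgfrb lay at 0.403, Des at 0.424, Hgf at 0.454, Dcn at 0.487 and Reln at 0.557 from the collagen profile, and Acta2 was farthest at 1.01.

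Genes of the same cells and pathways were read from 10 further lists, which held 202 tested genes besides the 10. The lists were chosen with earlier results of these data known. Their shares, here and below, are therefore descriptive and test nothing. edgeR called 0 of the 202, with 30 (14.9%) at an unadjusted p under 0.05, against 8.21% of all tested genes, and limma-voom called 0. The DESeq2 Wald test called 7 of the 201 to which it gave an adjusted p (3.48%, against 2.06% of all genes). These 7, all higher in Pak4_KO, were Lrat, Tpm2, Postn, Col12a1, Lama4, Plat and Pdgfd, with DESeq2 adjusted p from 0.000263 for Tpm2 to 0.0414 for Plat.

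Of 25 tested markers of resting stellate cells, 17 lay above and 8 below 0 in log2 fold change. Their median was 0.14, or 0.31 without Pak4_KO replicate 2 and -0.01 without replicate 3. Lrat, the retinol esterifying enzyme that makes the vitamin A store, stood at 10.3, 8.12 and 7.91 CPM in WT and at 19.2, 13.2 and 15.6 CPM in Pak4_KO. The groups did not overlap (log2 fold change 0.86, SE 0.19, edgeR adjusted p = 0.152, DESeq2 adjusted p = 0.00632). Pth1r, the parathyroid hormone receptor (log2 fold change 0.75, SE 0.24, edgeR adjusted p = 0.382), Gucy1b1, a subunit of the nitric oxide receptor (0.41, SE 0.19, adjusted p = 0.646), and Tmem56 (0.63, SE 0.18, adjusted p = 0.310) did not overlap either. All Pak4_KO libraries thus lay above WT for 4 of the 25 (16%, against 7.35% of all tested genes) and below for 0 (against 6.06%). Gucy1a1, another receptor subunit of the list, overlapped between the groups (log2 fold change -0.004, SE 0.15, edgeR adjusted p = 0.999). Tmem56 stood at 288 to 646 CPM, far above every other gene of the list, and whether other liver cells make it was not tested. The library pattern of Reln recurred here, since 12 of the 25 (48%) were lowest in Pak4_KO replicate 2, against 13.6% of all tested genes, and 12 (48%) were highest in Pak4_KO replicate 3, against 18.2%. It was not particular to this list. The same shares were 33.3% and 42.4% of 33 matrix glycoproteins and 25% and 66.7% of 12 endothelial markers. They were 37% and 14.8% of 27 other collagens and 11.1% and 14.8% of 27 genes of the activated cell. Ecm1, a matrix protein chosen once its values were known, stood at 17.8, 15.3 and 17.2 CPM in WT and at 15.9, 5.31 and 23.6 CPM in Pak4_KO. Kupffer cell markers, 10 of 10 with a negative log2 fold change (median -0.21), were lowest in Pak4_KO replicate 2 in 8 of 10 cases and summed to 430 to 519 CPM in WT and 352 to 445 CPM in Pak4_KO. The part of cell composition in these values was not tested.

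Of 27 tested genes of the activated cell, 13 lay above and 14 below 0 in log2 fold change (median -0.003). All Pak4_KO libraries lay above WT for 6 of the 27 (22.2%, against 7.35% of all tested genes), which were Tpm2, Postn, Thbs2, Lgals1, Fstl1 and Lox, and below for Timp1 and S100a6 (7.41%, against 6.06%). Tpm2, a tropomyosin of contractile filaments, stood at 1.09, 1.66 and 1.33 CPM in WT and at 3.02, 4.49 and 3.82 CPM in Pak4_KO (log2 fold change 1.47, SE 0.27, edgeR adjusted p = 0.0717, DESeq2 adjusted p = 0.000263). Postn, the matricellular protein periostin (1.00, SE 0.27, edgeR adjusted p = 0.269), and Thbs2, thrombospondin 2 (0.82, SE 0.23, adjusted p = 0.302), were not called by edgeR. Timp1, the metalloproteinase inhibitor that marks fibrogenic activation, lay the other way, at 1.41, 0.547 and 0.557 CPM in WT and 0.283, 0.254 and 0.360 CPM in Pak4_KO (-1.47, SE 0.49, adjusted p = 0.439).

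Of 27 tested collagen chains besides the 3, 14 lay above and 13 below 0 in log2 fold change (median 0.05). Col12a1, a fibril-associated chain, stood at 7.52, 5.35 and 4.35 CPM in WT and at 14.3, 13.1 and 8.00 CPM in Pak4_KO (log2 fold change 1.04, SE 0.28, edgeR adjusted p = 0.265). Col5a2, which nucleates fibrils of type I collagen (0.66, SE 0.21, adjusted p = 0.374), the basement membrane chain Col4a5 (0.75, SE 0.26, adjusted p = 0.466) and Col6a5 (1.11, SE 0.40, adjusted p = 0.480) had no overlap either. These were 4 of the 27 (14.8%, against 7.35% of all tested genes) above WT, with 0 below (against 6.06%). Of 33 tested matrix glycoproteins and proteoglycans, 27 had a positive log2 fold change (81.8%, against 50.7% of all tested genes), with a median of 0.21. Without 1 library, that median lay between 0.10 and 0.43. The summed level of the list lay the other way, at 5403 to 6434 CPM in WT and 4697 to 5310 CPM in Pak4_KO. A large part of it was Fn1, the fibronectin gene. Fn1 stood at 2592, 2647 and 3203 CPM in WT and at 2298, 2180 and 2413 CPM in Pak4_KO (log2 fold change -0.29, SE 0.15, edgeR adjusted p = 0.688). All Pak4_KO libraries lay above WT for 4 of the 33 (12.1%, against 7.35% of all tested genes) and below for 3 (9.09%, against 6.06%), namely Fn1, the laminin chain Lamc1 and Ecm2. Lama4, a laminin chain of vessel basement membranes, stood at 3.94, 2.80 and 3.04 CPM in WT and at 6.54, 6.14 and 8.18 CPM in Pak4_KO (1.09, SE 0.21, adjusted p = 0.103). Dpt (0.90, SE 0.25, adjusted p = 0.288), Fbln2 (0.85, SE 0.25, adjusted p = 0.333) and Eln, the elastin gene (2.13, SE 0.82, adjusted p = 0.530, with 0 reads in WT replicate 3), were the other 3 genes above WT. Liver endothelial markers, 12 of 12 with a positive log2 fold change, summed to 338 to 418 CPM in WT and 354 to 493 CPM in Pak4_KO, and cholangiocyte markers, 7 of 8 with a positive value and a median of 0.67, summed to 42.0 to 60.9 CPM in WT and 56.6 to 85.8 CPM in Pak4_KO. The cholangiocyte list shares Spp1 with the list of the activated cell. Spp1 made up most of the cholangiocyte sum in every library. It stood at 40.7, 24.5 and 27.1 CPM in WT and at 31.7, 37.7 and 59.8 CPM in Pak4_KO. DESeq2 called 1 of the 8 tested cholangiocyte markers, Pkhd1, and 1 of the 12 endothelial markers, Vwf, against 2.06% of all genes. Portal fibroblast and mesothelial markers, 10 of 15 tested, summed to 8.97 to 12.4 CPM in WT and 11.0 to 13.1 CPM in Pak4_KO, while 6 of the 10 had a negative log2 fold change and the median was -0.30. Dpt, Fbln2 and Eln belong to this list too. The part of these cell types in the matrix values was not tested.

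Enzymes and chaperones of collagen assembly had 15 of 24 positive values (median 0.15), with P4ha1, a prolyl hydroxylase subunit, at -0.60 (SE 0.25, edgeR adjusted p = 0.582) and Loxl2, a crosslinking oxidase, at 0.57 (SE 0.27, adjusted p = 0.648). Metalloproteinases, their inhibitors and plasmin activators had 14 of 23 positive (median 0.07). Plat, tissue plasminogen activator, stood at 1.46, 0.884 and 0.855 CPM in WT and at 3.37, 2.35 and 1.98 CPM in Pak4_KO (1.27, SE 0.33, adjusted p = 0.255).

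**Figure D5:**
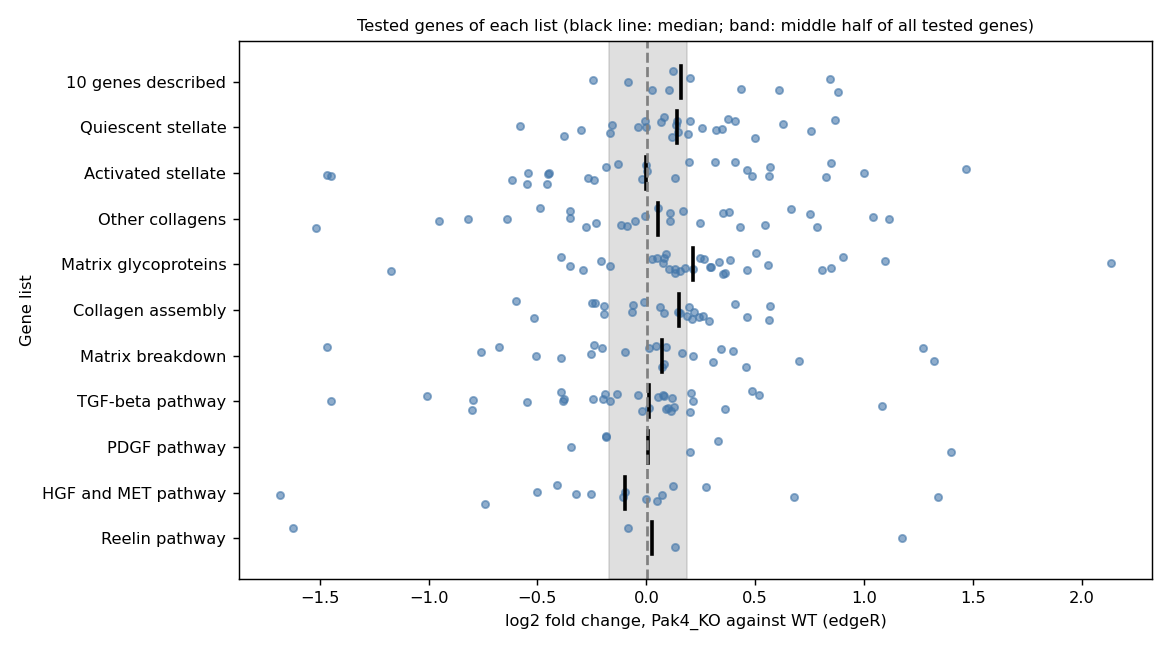
Log2 fold change of Pak4_KO against WT (edgeR) for each tested gene of the lists, with black lines at list medians, a dashed line at the median of all tested genes and a grey band over their middle range from -0.17 to 0.19. Medians of the lists drawn ran from -0.10 for the HGF and MET pathway to 0.21 for matrix glycoproteins.

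The signalling pathways around the 10 genes were mixed. In the PDGF family Pdgfd, a ligand of Pdgfrb, stood at 1.36, 0.737 and 0.855 CPM in WT and at 1.98, 2.35 and 3.42 CPM in Pak4_KO (log2 fold change 1.40, SE 0.34, edgeR adjusted p = 0.222), while Pdgfra (0.33), Pdgfa (-0.35) and Pdgfb (-0.19) overlapped between the groups. The TGF-β list, Tgfb1 included, had 16 of 31 positive values and a median of 0.01. Smad3, which carries the TGF-β signal to the nucleus, stood at 17.3, 15.9 and 7.36 CPM in WT and at 6.06, 6.75 and 7.34 CPM in Pak4_KO (-1.01, SE 0.30, adjusted p = 0.337). WT replicates 1 and 2 stood well above the other 4 libraries, and without WT replicate 3 Smad3 was called (log2 fold change -1.30, adjusted p = 0.0253). Tgfb2, another ligand, was at 1.08 (SE 0.37, adjusted p = 0.455) and Nrros, which holds latent TGF-β1 on macrophages, at -0.80 (SE 0.26, adjusted p = 0.427).

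Around Hgf, 7 of 15 genes of its pathway had positive values (median -0.10). Met, the receptor on hepatocytes, stood at 107, 148 and 109 CPM in WT and at 80.6, 86.0 and 108 CPM in Pak4_KO (log2 fold change -0.41, SE 0.18, edgeR adjusted p = 0.597). Spint1, an inhibitor of the protease that activates HGF, was at 1.34 (SE 0.39, adjusted p = 0.318). The reelin receptors had values of opposite sign. Vldlr stood at 0.782, 1.75 and 1.17 CPM in WT and at 3.04, 1.80 and 3.54 CPM in Pak4_KO (1.17, SE 0.37, adjusted p = 0.382), and Lrp8 at 1.03, 0.547 and 0.298 CPM in WT and at 0.142, 0.296 and 0.160 CPM in Pak4_KO (-1.62, SE 0.58, adjusted p = 0.480). Neither pair of groups overlapped, and neither gene was called. Of the 4 tested genes of the reelin list, Reln included, 1 lay above and 1 below without overlap (25% each). The shares of all tested genes were 7.35% and 6.06%.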

How the data were processed

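Per the labels' protocols, polyadenylated RNA of whole liver was sequenced from stranded TruSeq libraries. Tools in the submitters' processing notes are StringTie 2.1.3b, HISAT2 2.1.0, Bowtie2 2.3.4.1, FastQC 0.11.7, bcl2fastq 2.20.0 and the build mm10; not given in the sources used here: annotation, strand setting and handling of multi-mapped reads. The authors deposited raw read counts per gene, together with TPM and FPKM, per the file headers. Columns were matched to samples by genotype and replicate number.

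Counts were filtered with filterByExpr, scaled by TMM and tested with edgeR 4.0.16 (R 4.3.3, quasi-likelihood, two-sided) between the groups of 3, without covariates. P-values were adjusted by Benjamini-Hochberg over all 16197 tested genes. SE is the absolute log2 fold change over the square root of F. The procedure was checked on simulated data. The deposited TPM served levels between genes and chain ratios, FPKM an alternative for the ratios. The members and lists were chosen with earlier results of these data known. From each list, up to 4 genes with the smallest p were eligible for naming; other genes named for their libraries, overlap or level (such as Myh11, Ecm1 and Fn1) were added after their values were seen. Alternatives used DESeq2 1.42.0, limma 3.58.1, other scalings, filters and left-out libraries. No library pair within a group agreed within sampling noise. Positions come from RefSeq GRCm38.p6, 1-based. Of the genes nearest to the collagen profile, 1 is not reported here.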

Additional observations from a re-analysis of the deposited data

How the results depend on the processing

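Of the 10 genes, 0 were called in any of 18 alternative fits, and the smallest adjusted p was 0.106, for Col3a1 by the DESeq2 Wald test. Col1a1, Col1a2, Col3a1, Acta2, Pdgfrb and Tgfb1 kept their direction in all 18. The log2 fold change reversed for Des without Pak4_KO replicate 1 (-0.14) or without it and WT replicate 3 (-0.22), for Reln without WT replicate 3 (0.08) or Pak4_KO replicate 2 (0.26), for Dcn without WT replicate 2 (-0.17) or Pak4_KO replicate 3 (-0.21), and for Hgf without Pak4_KO replicate 3 (-0.059). Other values with libraries left out reached 0.24 for Des, -0.43 for Reln and 0.20 for Dcn. The ratio of Col3a1 to Col1a1, Pak4_KO mean over WT mean, was 0.979 and ran from 0.921 to 1.04 with 1 library left out, reversing without WT replicate 1 (1.02) or Pak4_KO replicate 3 (1.04). Over all genes, the 43 higher and 33 lower calls became 175 and 159 with the DESeq2 Wald test, and the higher calls 16 with at least 10 reads in every library, which tests fewer genes; with 1 library left out they ran from 22 to 34 and from 13 to 47. Among the lists, edgeR calls were compared between the main fit, no filter and 1 library left out. They ran from 0 to 1 for matrix glycoproteins (Vcan) and for the TGF-β pathway (Smad3), both without WT replicate 3. The DESeq2 Wald test called other genes of the lists, such as Lama4 of the matrix glycoproteins, as given above. The cause of these shifts was not tested. Fits of Pak4 under the alternatives were added after seeing the data.

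Replicate numbers were not treated as pairs, because nothing in the labels says that a number is shared by animals, litters or days. Deviations of same-numbered libraries correlated at 0.07, -0.20 and 0.15. Those of differently numbered libraries ran from -0.24 to 0.19, so these values do not settle pairing. With the replicate block, 0 of the 10 genes were called, and 39 genes were higher and 34 lower. The lowest counts were 28 reads for Acta2, in Pak4_KO replicate 3, and 83 for Col1a1, in WT replicate 1, and 3 libraries a group limit the precision of every value.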
